A study of Rattus norvegicus with 8 samples.

Results

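This report concerns single cytosines followed by adenine (CA) that were strongly methylated in rat brain. The sites were selected on their measured level: a cytosine of CHH context (H is A, C or T) followed by A on chromosomes 1 to 20, listed in all 8 libraries and methylated at 20% or more in each of them. Of 1154795 such CA positions listed in all 8 libraries, 4697 (0.407%) met this floor, out of 6307532 cytosines of any context listed in all 8. The assay was RRBS (reduced representation bisulfite sequencing), in which the enzyme MspI cuts the genome at sites that contain a CG and the short fragments are bisulfite-treated and sequenced. Bisulfite converts unmethylated cytosine, which is then sequenced as T, while a methylated cytosine still reads as C, so the level of a site is methylated calls over all calls. There were 4 hippocampus and 4 hypothalamus libraries, all from male Sprague Dawley rats that were 2 months old when they began 6 weeks on food containing the omega-3 fat DHA (docosahexaenoic acid). A chow group named in the study's design was not analysed here, and a treatment label shared by all samples also names fructose. The labels name no animals, so the p-values rest on the spread between these libraries, which may be partly technical. The spread used for a site was drawn toward that of all tested positions of like depth, so it is not the site's own spread alone.

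In most mammalian cells, methylation sits almost wholly on CG. Mature neurons are the best known exception: they also carry methylation on CA, placed after birth by the DNA methyltransferase DNMT3A. CAC is the triplet in which neuronal non-CG methylation is best known. A CA site has no cytosine opposite it on the other strand, so its methylation is not copied at replication in the way that CG methylation is. Bulk tissue was used, so a level between 0 and 100% is an average over cells and over both alleles, and fewer methylated cells cannot be told apart from fewer methylated copies per cell.

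The sequences below show what such sites look like and include the largest clusters, sites that differed between the tissues, a site high in every library and a site at 90% or more in some libraries. Letters were read from the deposited context of each listed cytosine on either strand, an n marks a base that no listed cytosine fixes, and positions are on the deposited build, rn5. All are written 5′ to 3′ on the strand of the site, and capitals mark the selected CA. Over the 4697 windows of 26 bases, the listed cytosines fixed 62.5% of bases with 0 contradictions.
Cluster on chromosome 1, minus strand, chr1:142755965-142756016: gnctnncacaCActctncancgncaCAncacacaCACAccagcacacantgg
Cluster on chromosome 10, plus strand, chr10:17323230-17323279: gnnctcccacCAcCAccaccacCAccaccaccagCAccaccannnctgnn
Cluster on chromosome 5, plus strand, chr5:173992022-173992087: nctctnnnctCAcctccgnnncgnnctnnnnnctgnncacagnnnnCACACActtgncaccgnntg
Higher in hypothalamus, plus strand, chr9:111777250-111777275: nnnnnnnncgCAcgnnncannncagn
Higher in hypothalamus, minus strand, chr8:104376804-104376829: nnnncctnctCAnagaggcanctgnc
Higher in hippocampus, plus strand, chr14:37699563-37699588: ctncacannnCAcactgnctcagctn
Higher in hippocampus, minus strand, chr7:120264029-120264054: canncagnnnCAcctctgctncctnn
High in every library, minus strand, chr17:10872361-10872386: cagnctgnccCAnnnccctnncaggn
At 90% or more in some libraries, plus strand, chr17:79522223-79522248: gnctnnnnnnCAnnnnnncannnncc
The chromosome 10 cluster lies in a run of CAC, 3 of the 4 sites of the chromosome 5 cluster lie in a run of CA, and the site at chr17:79522233, printed on the last line, has no cytosine listed at the third base. No gene or feature is named, because no annotation of this build was used here.

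Most selected sites were partly methylated. The mean level over the 8 libraries had a median of 37.5%, the middle 50% of sites lay between 32.0% and 50%, and the largest class was the 1978 sites (42.1%) between 30 and 40%. A further group of 256 sites (5.45%) lay between 90 and 100%. Because the floor of 20% in every library chose the sites, these levels describe the selection. All CA positions listed in the 8 libraries had a median mean level of 1.73%. The 3 sites just inside the floor had a lowest library of 20% and a highest of 29.2%, 36.1% and 41.2%, and the 3 positions just outside it had a lowest of 19.8% and a highest of 38.9%, 51% and 36.4%. Another 1104 positions had their lowest library between 18 and 20%, against 990 selected sites between 20 and 22%, so the edge of the group falls within a continuous spread of levels.

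**Figure D1:**
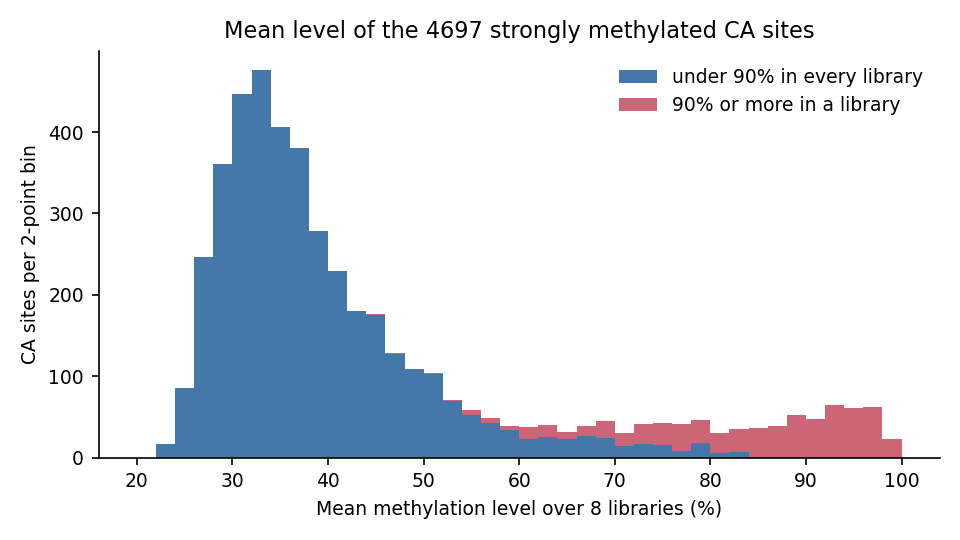
The x axis is the mean methylation level over the 8 libraries in percent and the y axis the number of selected CA sites per 2-point bin, stacked by whether any library reached 90%. The largest class, 42.1% of the sites, lies between 30 and 40%, and the sites with a library at 90% or more make up nearly all of the bars above 80%.

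The selected sites were split by the level of 90% that the selection rule sets as a flag for possible sequence variants. A total of 4032 sites (85.8%) stayed under 90% in every library, with a median mean level of 35.8%, and 665 (14.2%) reached 90% in at least 1 library, with a median of 86.9%. Whether sites of either group are variants was not tested, since the files hold no genotypes. Staying under 90% does not show that a site is no variant, because a level averages over both alleles. The main results are given for each group. Both strands were represented, with 2346 sites on the plus and 2351 on the minus strand. Depth at the selected sites was like that elsewhere: the median over sites of the mean number of calls per library was 54.1, and 55.2 over all CA positions, and only 3 sites averaged 500 calls or more. On the chromosomes, the share of CA positions that met the floor ran from 0.337% (chromosome 12) to 0.510% (chromosome 19).

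Among the other CHH cytosines, the same floor was met at 601 of 1206148 positions followed by T (0.0498%) and at 147 of 1549380 followed by C (0.00949%), against the 0.407% of CA positions. A library at 90% or more was seen at 14.5% of the former and 41.5% of the latter.

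The libraries differed in depth and in background. Total listed calls ran from 509259699 to 625653602 in the hippocampus libraries and from 178178404 to 572801479 in hypothalamus. At a median of 73 calls per selected site (hippocampus 4), the 95% Wilson interval of a level spanned 10.2 points to either side, and at 22 calls (hypothalamus 3) 17.9 points, counting error only. The level at CHH cytosines followed by C, which are little methylated in brain, was 1.76% and 1.85% in hippocampus 3 and 4 and 1.0% and 1.01% in hypothalamus 1 and 4, against 0.310% to 0.412% in the other 4 libraries. CA positions of the mitochondrial genome followed the same order of libraries at the top, with 3.16% and 3.35% in hippocampus 3 and 4. The selected sites did not follow it: hippocampus 1 to 4 had medians of 39.0%, 36.1%, 36.4% and 38.7%, and hypothalamus 1 to 4 had medians of 39.6%, 35.1%, 40% and 42.0%.

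The level was also read in a library that had no part in the choice. Positions at 20% or more in 7 libraries were looked up in the remaining library, each library in turn. Between 86.0% (hypothalamus 2) and 97.4% (hippocampus 4) of them were also at 20% or more there, and at least 97.9% were at 10% or more. The median level in the library left out was between 32.4% (hypothalamus 2) and 41.0% (hypothalamus 4).

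Sites under 90% were mostly CAC. The third base was a listed cytosine at 84.9% of the 4032 sites under 90%, at 38.6% of the 665 sites with a library at 90%, and at 37.3% of all CA positions. Within CAC, the next base also differed. CACC made up 49.8% of the sites under 90% against 10.2% of all CA positions, and CACT 26.0% against 9.78%. CACA made up 8.88% against 12.9%, and CACG only 8 sites (0.198%) against 4.35%. Read the other way, 1.70% of all CACC positions were selected sites under 90%, compared with 0.930% of CACT, 0.240% of CACA, 0.0159% of CACG and 0.0842% of CA positions without a listed cytosine at the third base. These sequences were read on the strand of each site, for both strands of the genome, and the rule fixed the sequence only to CA followed by a base other than G.

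**Figure D2:**
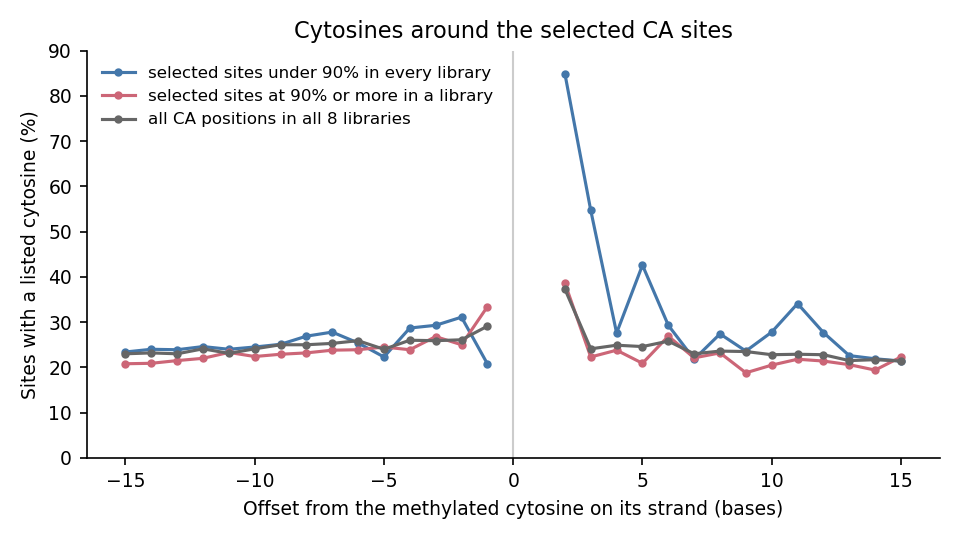
The x axis is the offset in bases from the methylated cytosine on its own strand (offset 2 is the third base of the triplet) and the y axis the share of sites with a listed cytosine there, for selected sites under 90% in every library, selected sites with a library at 90% or more, and all CA positions. The sites under 90% stand above the others at offsets 2 (84.9%), 3 (54.7%), 5 (42.6%) and 11 (34.1%), where the sites at 90% stay near all CA positions. At offset -1 the sites under 90% are lower, at 20.8%, against 29.1% of all CA positions and 33.4% of the sites at 90%.

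The order of these sequences held among positions that were not selected. With the selected sites left out, pooled levels over the 8 libraries were between 3.87% and 7.03% at CACC, 3.26% and 6.63% at CACT, 2.01% and 5.30% at CACA, 0.974% and 3.97% without a listed cytosine at the third base, and 0.635% and 3.72% at CACG. From CACC down to CACG, the same order was found within every library, also in hippocampus 3 and 4, where all levels were higher.

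Bases farther from the site differed as well. Among the sites under 90%, a listed cytosine stood 5 bases downstream at 42.6% and 11 bases downstream at 34.1%, against 24.6% and 22.9% of all CA positions. CACC positions with a cytosine at offset 5 were selected sites under 90% at 2.69% of 34203, and those without a listed one at 1.29% of 84114. Upstream, a T at offset -2 was seen at 20.1% of sites under 90% and at 8.68% of all CA positions, an A at offset -2 at 1.86% and 8.89%. Of CACC positions, 3.78% of 11121 with T at offset -2 were selected sites under 90%, but only 0.306% of 11427 with A and 0.356% of 15153 with G there. Where the CACC was preceded directly by CA, the share was 4.41% of 8952 positions. These counts use only bases that a listed cytosine fixes, which was 56.5% of sites under 90% and 55.4% of all CA positions at offset -2.

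The sequence also changed with level among the selected sites. The share with cytosine at the third base was 89.5% at a mean level of 20 to 30%, 88.6% at 30 to 40%, 83.8% at 40 to 50% and 76.8% at 50 to 60%. It was lower above that, at 52.8% at 60 to 70%, 32.8% at 70 to 80% and 30.8% at 80 to 90%, and was 43.8% at 90 to 100%. The value for all CA positions, 37.3%, lies among these upper classes. Sites with a library at 90% made up 73 of 195 sites at 60 to 70% and 130 of 204 at 70 to 80%. They were 185 of 198 at 80 to 90% and all 256 above. The classes pool both groups. Few sites were flagged in the lower classes: 0 of 727 at 20 to 30%, 2 of 820 at 40 to 50% and 19 of 319 at 50 to 60%. The lower share at 40 to 60% than at 20 to 30% therefore holds for the unflagged sites too. Above 60%, the change with level cannot be told apart from the growing share of these flagged sites.

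**Figure D3:**
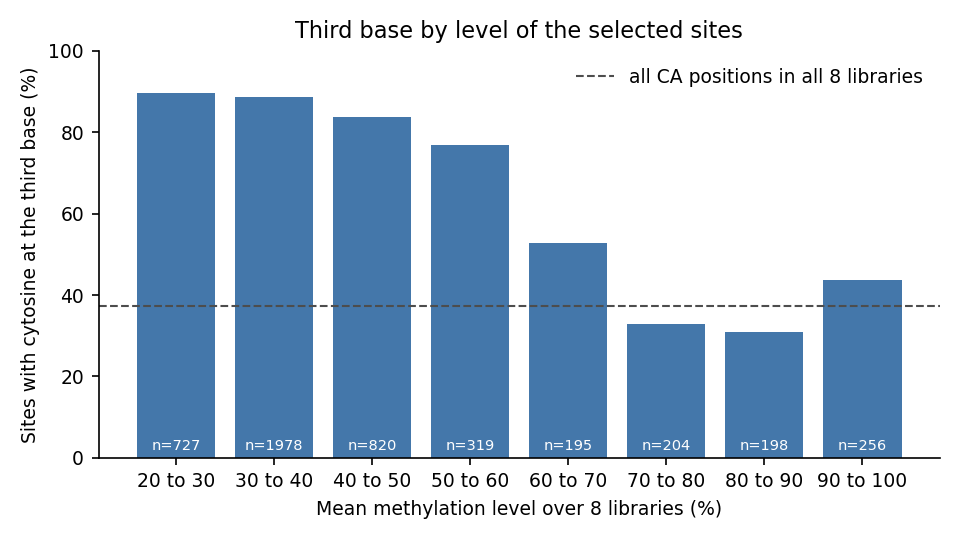
Bars give the share of selected sites with a listed cytosine at the third base (y axis, percent) by class of mean level over the 8 libraries (x axis, percent), with the number of sites in each bar. The dashed line is the share in all CA positions, 37.3%, which the bars reach between the class of 60 to 70% (52.8%) and that of 70 to 80% (32.8%).

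Selected sites lay in methylated surroundings. The nearest CG listed in all 8 libraries was a median of 20 bases away, compared with 16 bases for all CA positions and 13 bases for all CAC positions, and was beyond 100 bases for 21 sites. The median was 20 bases for the sites under 90% and 16 bases for those with a library at 90%. For those within 100 bases, the median level of this CG was 88.0%, against 80.9% for all CA positions. A CG under 20% stood beside 59 sites (1.26%), 33 of those under 90% (0.822%) and 26 of those with a library at 90% (3.94%), against 16.8% of all CA positions. Among CACC positions alone, the share that were selected sites under 90% was 0.0442% of 27143 where the nearest CG was under 20%, 0.742% of 10240 at 20 to 50%, 1.98% of 23288 at 50 to 80% and 2.53% of 57337 at 80% or more. By distance, and only where the CG was at 80% or more, the share was 2.14% at 1 to 10 bases from the CG, 2.35% at 11 to 20, 3.14% at 21 to 50 and 2.60% at 51 to 100. Other CA positions of the same strand within 100 bases had low levels. Their mean level had a median of 4.27% around sites under 90% and 2.51% around sites with a library at 90%, against 2.20% around all CA positions.

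The sites were mostly single. Of the 4697, 4179 had no other selected site within 100 bases, and 518 (11%) did, in 222 clusters of 2, 18 of 3 and 5 of 4. Almost all CA positions, 99.6%, had another listed CA position within 100 bases. That share counts any CA neighbour, whereas selected sites were only 0.407% of CA positions, so it is no background for the 11%. In the 273 neighbouring pairs within 100 bases, both sites were on the same strand in 207 (75.8%). The 24 pairs only 2 bases apart were all on the same strand, where the sequence reads CACA. Same-strand pairs were not counted among neighbouring CA positions of the whole table, so these shares have no background here. Of the sites under 90%, 11.3% had another site under 90% within 100 bases, and of the sites with a library at 90%, 3.91% had another such site. Each share counts only neighbours of the same group, and the groups differ in size (4032 and 665 sites). The shares therefore do not compare how strongly the groups cluster.

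The 3 clusters with the highest mean level among the 5 of 4 sites are the ones printed above. On chromosome 1, all 4 sites lay on the minus strand within 27 bases, 3 of them with mean levels of 32.7%, 33.5% and 27.0%. The fourth, at 142756006, was at 73.4%, 83.5%, 72.9% and 75.4% in hippocampus 1 to 4 and at 85.2%, 81.4%, 74.4% and 83.3% in hypothalamus 1 to 4. This site was thus high in every library while its neighbours, read in the same 39 to 134 calls, were not above 50%. On chromosome 10, 4 plus-strand sites in a CAC repeat had mean levels between 28.0% and 45.4%. On chromosome 5, 3 of the 4 sites were the neighbouring CA steps of a CACACA run, with mean levels of 31.5%, 40% and 38.5%.

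Some sites under 90% were high in every library. The 5 with the highest lowest library, whose narrow range follows from that choice and the limit of 90%, ran from 76.6% to 89.3% over all their libraries. The site chr17:10872376 was at 77.4%, 77.8%, 82.2% and 85.9% in hippocampus 1 to 4 and at 89.3%, 85.9%, 86.4% and 85.4% in hypothalamus 1 to 4, with 22 to 90 calls. The groups overlapped. At chr4:141197018 the 8 libraries lay between 78.6% and 84.3%. None of the 5 had a listed cytosine at the third base.

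The 665 sites with a library at 90% had a median range over the 8 libraries of 24.1 points, against 21.1 for the sites under 90%. Of the 665, 106 were at 90% or more in all 8 libraries and 115 in only 1, with every number between represented by 58 to 90 sites. The highest, chr7:139049402, was at 100% in 7 libraries and 97.8% in hippocampus 1. A range of 50 points or more over the 8 libraries was found at 265 selected sites, 200 of which had a library at 90%. At chr17:79522233, the widest, hippocampus 1 was at 35.7% and hippocampus 2, 3 and 4 at 92.1%, 100% and 96.3%, and hypothalamus 1, 2 and 3 were at 31.8%, 21.7% and 31.0% and hypothalamus 4 at 91.7%. The values fell into a high and a low set, and each tissue held both. The tissue means differed by -37.0 points (SE 22.1, adjusted p = 0.0352 in the test described below), which makes this one of the called sites, although its tissues overlapped. The call was lost in 5 of the 8 fits that left out a library (adjusted p = 0.0585 to 0.198) and with edgeR (adjusted p = 0.388).

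At these 665 sites, the libraries that carry the number 1 went together across tissues, and so did those with the number 4. Hippocampus 1 and hypothalamus 1 lay on the same side of 75% at 91.6% of the sites, and hippocampus 4 and hypothalamus 4 at 92.3%. Hippocampus 2 and hypothalamus 2 did so at 74.7%, hippocampus 3 and hypothalamus 3 at 73.4%, and the other 24 pairs of libraries at 72.6% to 79.4%. Deviations from the tissue mean across the 665 sites had a correlation of 0.742 for the libraries numbered 1 and 0.673 for those numbered 4. It was -0.146 for number 2, -0.113 for number 3, and between -0.476 and 0.0819 for the other 24 pairs. These 24 include pairs within a tissue, whose deviations from their shared mean tend to be negatively correlated by construction. The correlations are across sites, which are not independent replicates. At the 4032 sites under 90% the values for numbers 1 and 4 were -0.0756 and -0.127. The labels do not say whether libraries of the same number came from the same animal.

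A small share of the selected sites was called between the tissues. The tissue means were 10 points or more apart at 674 sites (14.3%), 448 higher in hypothalamus and 226 higher in hippocampus. Among all CA positions, most of which have far lower levels, such a gap was found at 6629 (0.574%). Of these, 4923 were higher in hypothalamus and 1706 higher in hippocampus. Such a gap was found at 12.9% of the sites under 90% and at 23.2% of those with a library at 90%. To be called, a site needed a gap of 10 points or more between the tissue means and an adjusted p under 0.05 in a quasi-binomial F test fitted to all 148294 CA positions with a mean level of 5 to 95%. The test called 38 of 4584 selected sites tested (0.83%), against 244 positions in the whole table (0.165%). The other 113 sites, with means above 95%, were not tested. Higher levels in hypothalamus were called at 28 sites (0.611%), against 0.128% of the table, and higher levels in hippocampus at 10 (0.218%), against 0.0364%. Of the 38, 26 were among the sites with a library at 90%, and among the 4032 under 90% the test called 12 (0.298%), 8 higher in hypothalamus and 4 higher in hippocampus. A floor in all 8 libraries leaves out positions that drop under 20% in a tissue, and selected sites have higher means than the table, so the shares are set side by side without a test.

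The number of calls depended on the test. With the dispersion of each position alone, with limma on logit levels, or with no filter on the mean level, 0 selected sites were called, although 226, 136 and 357 had an unadjusted p under 0.05 (498 in the test above), and edgeR's quasi-likelihood test called 6. Leaving out hippocampus 1, 2 or 4 or hypothalamus 4 changed the count to 95, 20, 70 or 61, and the level at CHH cytosines followed by C as a covariate changed it to 62. Of the 38 sites, 19 were still called without hippocampus 2 and 23 without hypothalamus 1 (in both cases 6 of the 12 under 90%), and 29 to 37 without any other library.

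Complete separation of the 4 hippocampus from the 4 hypothalamus libraries was seen at 276 selected sites (6.02%), against 4.73% of the table. It was higher in hypothalamus at 188 (4.10%, against 3.16%) and higher in hippocampus at 88 (1.92%, against 1.58%). These shares are near the background. The median difference, hypothalamus minus hippocampus, was 1.12 points over the selected sites, with the middle 50% between -2.88 and 5.48. It was -0.962 points over all CA positions, most of which have far lower levels. Over the 147805 positions with a mean level of 5 to 95% and a CG within 100 bases, it was 0.881 points. A positive median was thus not particular to the selected sites. Sites under 90% had a median of 1.30 points and sites with a library at 90% one of 0.315. The value over all selected sites was 0.371 without hypothalamus 4, 2.06 without hypothalamus 2 and 0.613 from pooled calls. Hypothalamus was higher at 2698 of the 4697 sites (57.4%), against 26.4% of all CA positions. The library medians given above overlapped between the tissues, at 37.5% ± 1.51 in hippocampus and 39.2% ± 2.91 in hypothalamus (SD, n = 4 libraries each), so this shift is within the spread between libraries. The background at CHH cytosines followed by C moved the other way, with means of 1.08% ± 0.840 and 0.683% ± 0.374, and with each library's background level subtracted the median difference was 1.52 points.

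**Figure D4:**
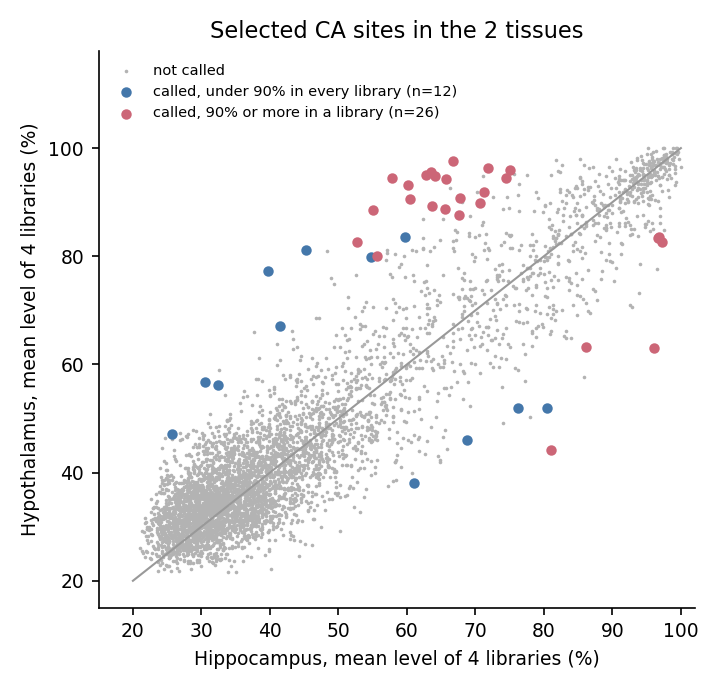
Each point is a selected CA site, at its mean level in 4 hippocampus libraries (x axis, percent) and in 4 hypothalamus libraries (y axis, percent), with the line of equal levels. The 38 called sites are coloured by whether any library reached 90%, and 28 of them lie above the line.

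The sites named next were chosen among called sites whose tissues did not overlap, so that separation is no finding. At chr9:111777260, hippocampus 1 to 4 had levels of 38.9%, 36.1%, 47.9% and 35.9%, and hypothalamus 1 to 4 had 80.5%, 66.7%, 76.0% and 85.7%, with 25 to 83 calls. The difference of the means was 37.5 points (SE 4.92, adjusted p = 7.42e-05). The nearest CG, 2 bases away, differed alike, at 36.7% in hippocampus and 74.4% in hypothalamus. At chr8:104376819, hippocampus was at 44.6%, 33.0%, 53.7% and 50% and hypothalamus at 83.5%, 74.4%, 87.0% and 80%. The difference was 35.9 points (SE 5.25, adjusted p = 9.80e-06), and the CG 18 bases away was at 52.3% in hippocampus and 86.9% in hypothalamus.

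At the other sites among the 5 largest toward hypothalamus, some libraries reached 90%. At chr10:19841701, hippocampus was at 66.7%, 31.8%, 65.4% and 67.6% and hypothalamus at 91.8%, 100%, 91.2% and 94.4% (36.5 points, SE 8.93, adjusted p = 4.97e-05). All 4 hypothalamus libraries were above 90%, and hippocampus 2 was the lowest by far. At chr20:11904091 the difference was 33.6 points (SE 8.0, adjusted p = 0.0104), and at chr2:272819200 33.0 points (SE 13.2, adjusted p = 0.00105). The call at chr20:11904091 was lost without hippocampus 2 (adjusted p = 0.0749), and edgeR called neither of these sites (adjusted p = 0.193 and 0.139). At the last of these, hippocampus itself was split, with 78.9% and 85.3% in libraries 1 and 4 and 33.8% and 42.1% in libraries 2 and 3, and the nearest CG, 13 bases away, went the other way, from 29.9% in hippocampus to 3.98% in hypothalamus. Of the 27 called sites whose tissues did not overlap, 23 were higher in hypothalamus, and 15 of those 23 had a library at 90%. Among called positions of the whole table, with or without overlap, 190 were higher in hypothalamus and 54 in hippocampus. Positions both called and without overlap were not counted over the table.

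The other 4 called sites without overlap were higher in hippocampus, and none of them reached 90%. At chr14:37699573, hippocampus was at 83.3%, 84.4%, 76.3% and 77.4% and hypothalamus at 45.9%, 48.0%, 60.9% and 53.3%, a difference of -28.3 points (SE 3.92, adjusted p = 0.0104). The call was lost without hippocampus 2 (adjusted p = 0.0561) or hypothalamus 1 (0.0567). The nearest CG, 42 bases away, was at 72.4% in hippocampus and 45.0% in hypothalamus. At chr7:120264044, a CACC site, hippocampus was at 56.3%, 62.7%, 64.6% and 60.2% and hypothalamus at 36.4%, 40%, 44.0% and 31.6%, a difference of -23.0 points (SE 3.19, adjusted p = 0.0268). Its call was lost in 4 of the 8 fits that left out a library (adjusted p = 0.0599 to 0.0939). The remaining sites, chr17:8523290 and chr2:58009029, differed by -24.4 points (SE 4.35, adjusted p = 0.00692) and -22.7 points (SE 5.81, adjusted p = 0.0326). The latter call was lost without hippocampus 2, hypothalamus 1 or hypothalamus 3 (adjusted p = 0.141, 0.132 and 0.0762). None of the 4 was called by edgeR's quasi-likelihood test (adjusted p = 0.220 to 0.358), which did call the sites on chromosomes 9, 8 and 10 above (adjusted p = 0.0444, 0.0238 and 0.0322).

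**Figure D5:**
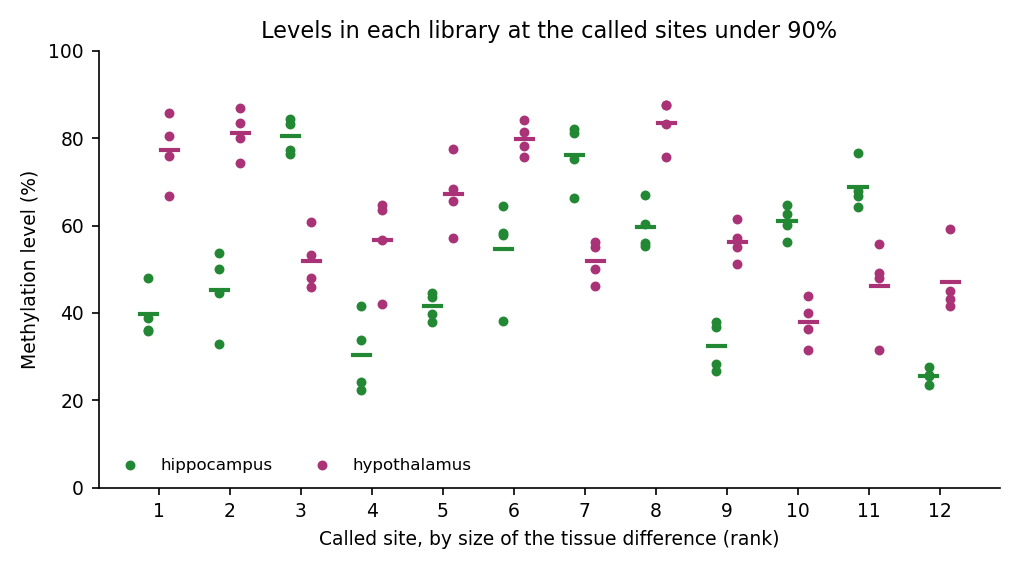
The 12 called sites that stayed under 90% in every library, ordered by the size of the tissue difference (x axis), with the level in each of 4 hippocampus and 4 hypothalamus libraries (points, y axis in percent) and the tissue means (lines). At all 12 the tissues do not overlap, 8 being higher in hypothalamus and 4 higher in hippocampus.

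The 12 called sites under 90% moved with their nearest CG. At all 12 the CG mean differed in the same direction as the site, by 9.24 to 37.7 points (median 23.4), beside differences at the sites of 21.5 to 37.5 points (median 24.8). Among the 26 called sites with a library at 90%, the CG went the same way at 20, with a median of 4.77 points beside 25.1 at the sites. In the 15 of those 26 without overlap, it did so at 14, with a median of 21.7 points beside 28.6, near the values of the 12. Such counts of direction were not made for the called positions of the whole table. Over all 4016 sites under 90% with a CG within 100 bases, the correlation of the tissue difference at the site with that at the CG was 0.356. It was 0.333 over 660 sites with a library at 90%, and 0.258 over the 147805 positions of the whole table with a CG that near. Site and CG always share libraries and may share reads, which were not counted.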

How the data were processed

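RRBS was measured in 8 libraries, 4 per tissue. MspI digestion, selection of fragments of 150 to 300 bases and bisulfite treatment are given per the labels' protocols; Bowtie and the build rn5 are named, without versions, in the submitters' processing notes. No source used here names the methylation caller, the trimming or the handling of duplicate reads. For each cytosine the authors deposited 2 counts, methylated calls and all calls, and their ratio as a fraction, which was not used. Every listed position had at least 10 calls, so shallower positions were not analysed here.

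The selected sites, sequence classes and named-site rule were chosen with earlier results of these data known. Levels were computed as methylated over all calls. Each CA position listed in all 8 libraries with a mean level of 5 to 95% was fitted with a quasi-binomial logistic model with tissue as the only term. The Pearson dispersion was moderated by limma 3.58.1 (squeezeVar, trend on depth) in R 4.3.3 with a floor of 1, and p-values were adjusted by the Benjamini-Hochberg method over all 148294 positions. A call needed a tissue gap of 10 points or more and an adjusted p under 0.05. The fit was tested on simulated data. Alternatives included edgeR 4.0.16, limma on logits with 0.5 added to each count, depth minimums, a replicate block and leaving out each library. Descriptions used Python 3.11.15, numpy 2.4.6 and pandas 2.3.3. Letters around sites were rebuilt from the deposited contexts, since no genome of the build was used.

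Named sites were the 5 largest differences in each direction among called sites without overlap (4 toward hippocampus), the 5 highest lowest-library levels under 90%, the 3 largest clusters, the 3 widest ranges and 3 highest means among sites with a library at 90%, and 3 sites on either side of the floor. The other called sites under 90% were shown after their values were seen.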

Additional observations from a re-analysis of the deposited data

Results flagged for a closer look

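In the 4 libraries of a tissue, the highest or lowest level at a named site sometimes stood far from the other 3 (Dixon's ratio at the 95% level). This held for 10 of 82 groups of 4 tested, and chance flags about 1 in 20 groups. That rate does not apply as it stands, because some of these sites were chosen for a wide range or a high level, and where the other 3 libraries share a value any gap is enough. At chr10:19841701, hippocampus 2 was at 31.8% and the others at 65.4% to 67.6%. At chr17:79522233, hippocampus 1 was at 35.7% against 92.1% to 100%, and hypothalamus 4 at 91.7% against 21.7% to 31.8%. At chr10:17323240, hypothalamus 1 was at 66.7% against 35.3% to 35.7%, and at chr12:25066498 it was at 83.1% against 77.3% to 78.0%. In the cluster on chromosome 5, hippocampus 1 was at 55.0% at position 173992070 against 35.4% to 38.1%, and hypothalamus 2 at 45.3% at position 173992072 against 32.7% to 33.3%. At 3 sites the other hippocampus libraries were all at 100%: hippocampus 1 was at 97.8% at chr7:139049402, hippocampus 4 at 97.1% at chr3:20385962 and hippocampus 2 at 95.7% at chr1:3920138.

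Chromosome X was not part of the selection. There 31 of 15090 CA positions listed in all 8 libraries (0.205%) were at 20% or more in each, and 27 of them stayed under 90%. The autosomes ranged from 0.337% to 0.510%.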

How the results depend on the processing

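The number of selected sites moved with the floor: 17792 at 10% in every library, 1773 at 30%, 15758 at a mean of 20%, 1460 with a lower Wilson bound of 20% in every library and 2294 with at least 20 calls. Leaving out 1 library gave 4824 to 5462. Calls between tissues moved most. Against 38 selected sites and 244 positions of the whole table, the dispersion of each position alone, limma on logits and no filter on the mean level each gave 0 and 0 (unadjusted p under 0.05 at 6708, 11969 and 100305 positions of the table, 13108 in the test reported). The edgeR test gave 6 and 11, at least 20 calls 21 and 158, and the level at CHH cytosines followed by C as a covariate 62 and 691. A minimum difference of 20 points gave 33 and 93, and leaving out 1 library 20 to 95 and 112 to 575 (444, 112 and 385 positions without hippocampus 1, 2 and 4, and 575 without hypothalamus 2). Without sites at 90%, 12 selected sites were called, also when only sites without overlap were counted (27 with them); this alternative was chosen after seeing the data.

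Deviations of same-numbered libraries over the table correlated at 0.171, 0.0239, 0.0198 and 0.121 for numbers 1 to 4, so the numbers were not taken to pair the libraries. Libraries 1 and 4 of each tissue correlated best with their own number, libraries 2 and 3 did not. With a replicate block over all 8 libraries, 125 selected sites and 1317 positions were called, including all 38. With the block in replicates 1 and 4 only, 0 and 0 were called (unadjusted p under 0.05 at 296 and 10480), and 33 of the 38 kept their direction. Without hypothalamus 2, 37 of the 38 kept it.

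Sites beside another selected site were 8.58% within 50 bases, 15.7% within 1000 and 8.45% on the same strand, against 11%. Without sites at 90%, cytosine stood at the third base of 84.9% of sites, against 78.3%. The median share passing in a left-out library was 94.4%, and 99.3% at 10%. The median tissue difference stayed positive, at 0.371 (without hypothalamus 4) to 2.06 points (without hypothalamus 2) over the libraries left out, and the sign at the 16 named or shown called sites was kept in every alternative that tested them. Depth limits single levels most in hypothalamus 3 and 4.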

Other observations

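Cytosines of CHG context were not part of the selection. Under the same floor of 20% in all 8 libraries, 801 of 670674 CAG positions (0.119%), 167 of 149877 CCG positions (0.111%) and 67 of 656805 CTG positions (0.0102%) passed. A library at 90% or more was seen at 48.7%, 62.3% and 61.2% of these, against 14.2% of the CA sites described above and 14.5% of the 601 sites followed by T.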
